A study of Mus musculus with 64 samples.

Results

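A set of 36 genes of cholesterol and fatty acid synthesis, of the 23338 genes counted in every library, was followed across mouse development. The genes were chosen by symbol for their place in the pathway: 14 enzymes of cholesterol synthesis, 6 regulators of sterol supply, 13 genes of fatty acid synthesis, elongation and desaturation, and 3 genes of glycerolipid metabolism. All 36 symbols were found in the counts. RNA sequencing read counts were examined in 64 libraries of the C57BL/6 strain (C57BL/6 J in the study's methods), and the gender label (M or F) and the Stage label gave the groups. They were 12 single eight-cell embryos (6 M and 6 F), 4 embryonic stem (ES) cell lines kept in 2i, a medium with inhibitors of 2 kinases (2 M and 2 F), 24 fetal livers of late gestation (12 M and 12 F) and 24 livers of adult mice killed at 15 to 20 weeks of age (12 M and 12 F). The labels name no treatment or engineered allele for any group. An ES replicate is a line rather than an animal, the mice were killed in the late morning, and their feeding state is not given in the sources used here.

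Cholesterol and fatty acids are both built from acetyl-CoA in the cytosol. When the sterol content of the endoplasmic reticulum falls, the escort protein Scap carries the transcription factors encoded by Srebf1 and Srebf2 to the Golgi, where they are cut and released to the nucleus. The Insig proteins hold Scap back when sterol is plentiful. In the liver the Srebf2 product is known mainly for the cholesterol enzymes, and the Srebf1 product, which responds to insulin, mainly for the enzymes of fatty acid synthesis.

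ES lines and livers were made into libraries with one stranded total RNA kit and the embryos with a single-cell amplification protocol. Totals on genes were 9857929 to 10386931 reads in ES lines, 4659656 to 7725432 in embryos, 5145371 to 8499603 in the livers before birth and 1567583 to 4757610 in those of adults, so that 3 reads were worth between 0.289 and 1.91 CPM (read counts relative to the library's total on genes). Levels are CPM after scaling of the libraries by the trimmed mean of M-values (TMM). The 10 hepatocyte markers summed to 28882 to 39394 CPM in fetal and 68467 to 87206 in adult livers, and the 7 pluripotency markers to 3277 to 4168 CPM in ES lines and 532 to 2086 in embryos. No library went against its gender label, judged by the levels of Xist and Ddx3y. The study took the sex of the embryos from their expression of Xist and Eif2s3y, so for embryos this check could hardly fail. In fetal livers the share of reads that fell on genes was 50.4 to 59.3% in M and 61.2 to 65.0% in F, with no overlap. In adult livers it was 63.8 to 71.0% in M and 62.8 to 73.4% in F. Alignments to more than 1 place, per read on genes, were 1.09 to 2.26 in adult M and 0.703 to 1.17 in adult F livers. Median totals on genes were 3471725 reads in adult M and 2605934 in adult F livers. The part of these library traits in the adult M and F differences was not tested.

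Promoter sequence from RefSeq (build GRCm38.p6, 250 bases before to 50 after the start site) was matched for 27 of the 36 members. Sequences are shown for 6 of them, because they stand for the results described below: Hmgcs1 and Mvd, enzymes of the mevalonate pathway that were lower in adult M liver, Mvk, the enzyme of the same pathway with the most CCAAT copies among those shown, Fasn, the central fatty acid enzyme, Insig2, which rose in adult liver, and Pnpla3, the lipid droplet gene with the largest F excess. Each is the 200 bases before the start site, 5′ to 3′ on the strand of the gene and free of annotated exons, with capitals marking the letters CCAAT (or ATTGG, the same letters on the other strand) and TCACNCCAC (or its reverse complement). Hmgcs1 lies on the plus strand at chr13:119690151-119690350, Mvk on the plus strand at chr5:114444069-114444268, Mvd on the minus strand at chr8:122443423-122443622, Fasn on the minus strand at chr11:120824548-120824747, Insig2 on the minus strand at chr1:121332590-121332789 and Pnpla3 on the plus strand at chr15:84167616-84167815.
Hmgcs1: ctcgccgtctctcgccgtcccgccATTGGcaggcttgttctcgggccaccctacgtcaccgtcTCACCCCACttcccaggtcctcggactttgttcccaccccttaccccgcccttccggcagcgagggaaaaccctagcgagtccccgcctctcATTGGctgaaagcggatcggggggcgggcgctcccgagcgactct
Mvk: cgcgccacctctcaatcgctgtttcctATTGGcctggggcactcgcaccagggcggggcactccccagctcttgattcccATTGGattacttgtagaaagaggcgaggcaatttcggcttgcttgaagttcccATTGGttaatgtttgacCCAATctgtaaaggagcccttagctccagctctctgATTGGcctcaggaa
Mvd: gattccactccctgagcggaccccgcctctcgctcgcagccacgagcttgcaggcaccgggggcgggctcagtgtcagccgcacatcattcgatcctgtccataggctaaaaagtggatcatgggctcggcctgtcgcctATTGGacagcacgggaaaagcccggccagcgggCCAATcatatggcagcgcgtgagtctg
Fasn: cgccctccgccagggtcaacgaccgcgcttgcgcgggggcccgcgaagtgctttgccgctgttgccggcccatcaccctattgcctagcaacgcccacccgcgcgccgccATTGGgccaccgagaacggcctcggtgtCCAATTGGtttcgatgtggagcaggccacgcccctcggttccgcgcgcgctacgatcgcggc
Insig2: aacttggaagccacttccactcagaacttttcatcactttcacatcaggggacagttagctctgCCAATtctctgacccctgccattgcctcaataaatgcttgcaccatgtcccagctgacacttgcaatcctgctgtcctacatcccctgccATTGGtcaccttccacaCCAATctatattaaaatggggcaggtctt
Pnpla3: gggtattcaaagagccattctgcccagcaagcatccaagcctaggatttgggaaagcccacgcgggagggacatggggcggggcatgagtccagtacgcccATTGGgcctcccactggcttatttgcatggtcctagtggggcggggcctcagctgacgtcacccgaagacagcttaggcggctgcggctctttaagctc

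CCAAT is the core of the site of NF-Y, a factor known to act beside the Srebf products. It was present on either strand in the RefSeq window of 22 of the 27 members (81.5%), against 41.1% of all 27025 genes with a window. It was found in 10 of 11 cholesterol enzymes and in 6 of 9 fatty acid genes. In the sequences above, Mvk has 5 copies, at 173, 120, 67, 50 and 14 bases before the start site, and Pnpla3 has 1 copy, at 99 bases. Among the 3 copies in Fasn, those at 62 and 59 bases overlap. GGGCGG, the core of the Sp1 site, was in 20 of 27 members (74.1%) against 38.2% of all genes, again in 10 of 11 cholesterol enzymes but in 3 of 9 fatty acid genes. TCACNCCAC, a strict form of the sterol regulatory element, was in the window of Hmgcs1 alone among the 27 members, and in 1.44% of all genes. CACGTG, an E-box, was in 5 of 27 members (18.5%) against 8.09% of all genes. These matches describe the letters of the windows and were not tested as binding sites.

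The members differed widely in level, and the order of the levels changed with stage. Per kilobase of exon, the member with the highest median in adult liver was Scd1 (1368 CPM per kb), which encodes the stearoyl-CoA desaturase of adult liver, followed by Insig1 (334 CPM per kb), Dgat2 (300.5), Hmgcs1 (299) and Fdps (258). In fetal liver the order was led by Hmgcs1 (266 CPM per kb), Fdps (225), Scd2 (191) and Insig1 (181), so that a cholesterol enzyme stood first. In ES lines Acly led (168 CPM per kb), followed by Scd2 (153) and Fdps (105), and in embryos Fdps (254 CPM per kb), Fdft1 (119) and Elovl6 (108). Fdps, which makes farnesyl diphosphate, was among the 5 highest members at every stage. The stage with the highest median CPM was adult liver for 25 members, fetal liver for 7, ES lines for 2 and embryos for 2. This tally was not made over all genes, so it does not show a trait particular to the members. Where embryos are set beside the other stages, stage and library protocol cannot be told apart.

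**Figure D1:**
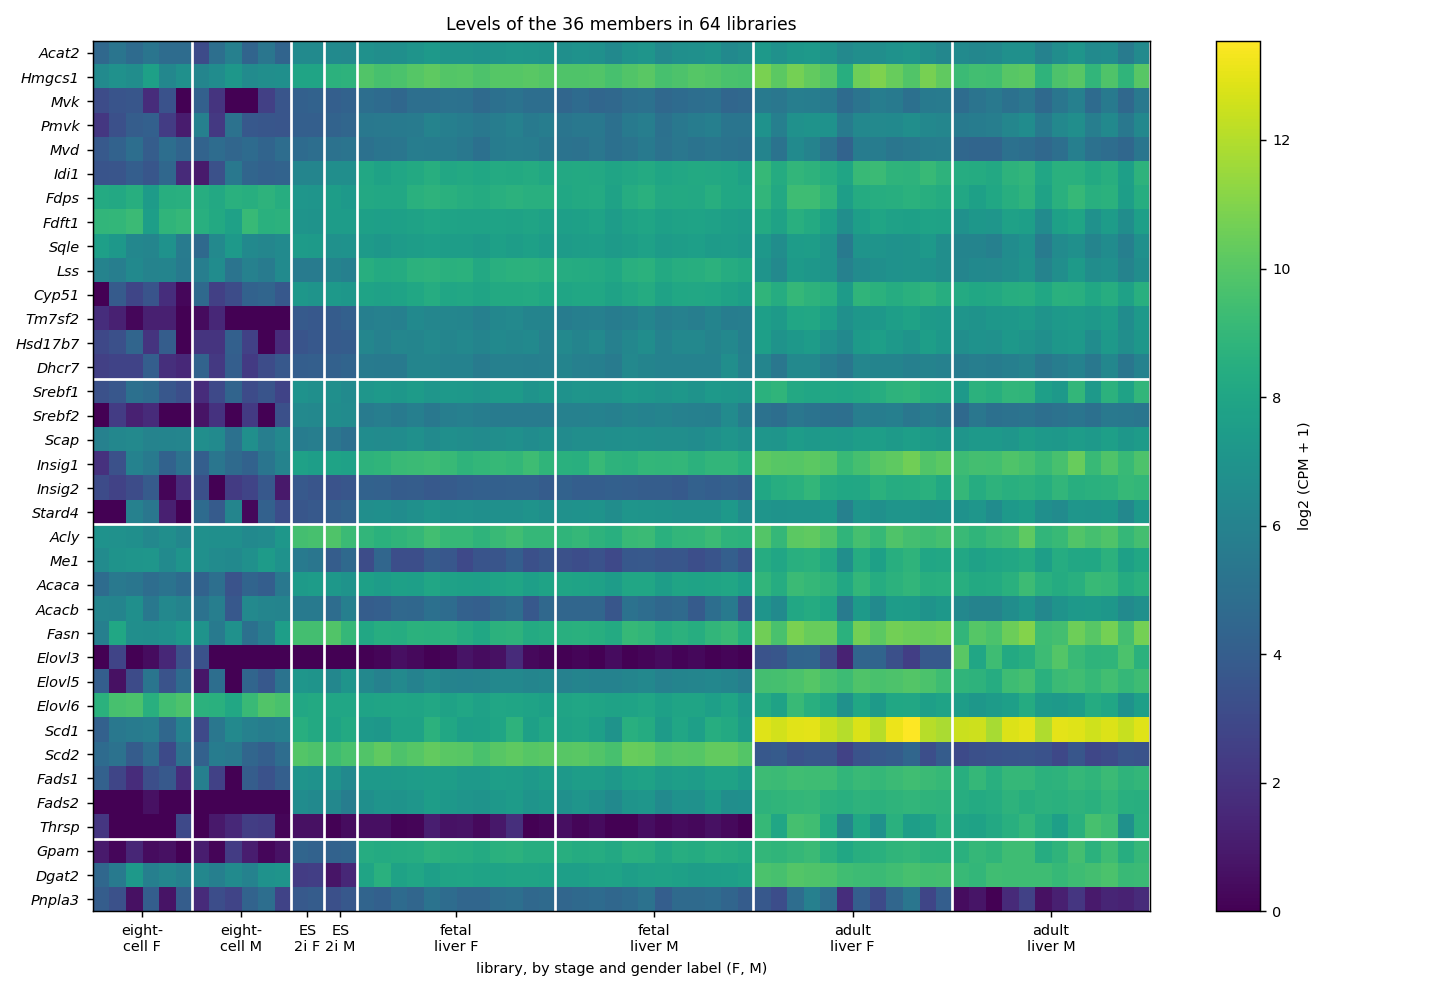
Heat map of log2 (CPM + 1) of the 36 members (vertical axis, ordered by role) in each of the 64 libraries (horizontal axis, by stage and gender label). Scd1 is highest in the adult livers, at 3512 to 11932 CPM, while Scd2 is high in ES lines and fetal livers and at 5.28 to 21.2 CPM in adult livers.

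Adult liver was first compared with fetal liver, which asks how the pathway differs before birth and in the adult in one organ and one library kit. Genes of fatty acid synthesis were mostly higher in adult liver, while 11 of the 14 cholesterol enzymes stayed inside the fold limit. A gene was called where its log2 difference was beyond 1 in either direction and its adjusted p was under 0.05 (edgeR's quasi-likelihood test, Benjamini-Hochberg adjustment over all genes tested). Of all 13026 genes tested, 43.4% were called (19.6% higher and 23.8% lower in adult liver). All 36 members were tested, and 15 were called higher and 3 lower. The median log2 difference was 0.73 over the members and -0.05 over all genes. Among fatty acid genes 10 of 13 were called higher, against 2 of the 14 cholesterol enzymes. These are bulk samples, in which fewer cells of a type and less RNA per cell cannot be told apart: 7 of 7 tested erythroid markers were lower in adult liver (median log2 -11.59) and 7 of 10 hepatocyte markers were higher (median 1.45). Their part in the differences of the members was not tested.

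The desaturases Scd1 and Scd2, which place the first double bond in saturated fatty acids, moved in opposite directions. Scd1 was at 122, 221 and 428 CPM (lowest, median, highest) in fetal livers and at 3512, 6611 and 11932 CPM in adult livers. Scd2 was at 772, 1042 and 1349 CPM in fetal livers and at 5.28, 10.3 and 21.2 CPM in adult livers. Neither gene's values overlapped between the stages. The log2 difference (adult minus fetal) was 4.84 ± 0.15 (SE, adjusted p = 2.87e-31, edgeR quasi-likelihood test) for Scd1 and -6.54 ± 0.09 (adjusted p = 1.38e-52) for Scd2. The genes are near neighbours on chromosome 19 (GENCODE M21, GRCm38), Scd1 at chr19:44394455-44407879 on the minus strand and Scd2 at chr19:44293674-44306864 on the plus strand. Per length, Scd1 made up 12 to 29.4% of the reads of the pair before birth and 99.7 to 99.9% in the adult. They are paralogs, and reads that could come from either gene may be split between them by the counting.

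Other genes of fatty acid synthesis were also higher in adult liver, by different amounts. Thrsp, which encodes Spot 14, a lipogenic protein under thyroid hormone control, was at 0, 0.289 and 2.56 CPM in fetal livers. In adult livers it stood at 71.5, 317 and 767 CPM. Me1, the malic enzyme that supplies NADPH, was at 6.89, 10.5 and 21.3 CPM in fetal livers and at 104, 276 and 444 CPM in adult livers. The lowest adult liver lay above the highest fetal liver for both. The log2 differences were 9.90 ± 0.32 for Thrsp and 4.85 ± 0.13 for Me1 (adjusted p = 1.29e-30 and 3.06e-35 by edgeR), and the value for Thrsp rests on fetal counts of 20 reads or fewer. The elongase Elovl5, which lengthens polyunsaturated fatty acids, was at 54.9, 68.9 and 82.0 CPM in fetal and 334, 678 and 988 CPM in adult livers, a log2 difference of 3.39 ± 0.06. The mitochondrial acetyl-CoA carboxylase Acacb rose by 2.72 ± 0.17 on the log2 scale, the polyunsaturated fatty acid desaturases Fads2 and Fads1 by 1.82 ± 0.06 and 1.69 ± 0.05, and the cytosolic carboxylase Acaca by 1.02 ± 0.07. Acaca was no longer past the fold limit under 5 of the 6 alternative fits.

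Fasn, the fatty acid synthase itself, also rose. It was at 265, 368 and 576 CPM in fetal livers and at 405, 1370 and 2088 CPM in adult livers, and the ranges overlapped through the lowest adult livers. The log2 difference was 1.81 ± 0.13 (adjusted p = 2.30e-17, edgeR). Elovl3, an elongase of very long chain fatty acids, was at 0, 0.132 and 2.18 CPM in fetal livers and at 1.44, 140 and 1072 CPM in adult livers, with a difference of 8.44 ± 0.35 on the log2 scale. Its adult values fell apart by gender label and are given below. Acly, which makes cytosolic acetyl-CoA, and Elovl6, which elongates palmitate, were not called. Acly was at 460, 718 and 1199 CPM in adult and 368, 507 and 700 CPM in fetal livers.

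**Figure D2:**
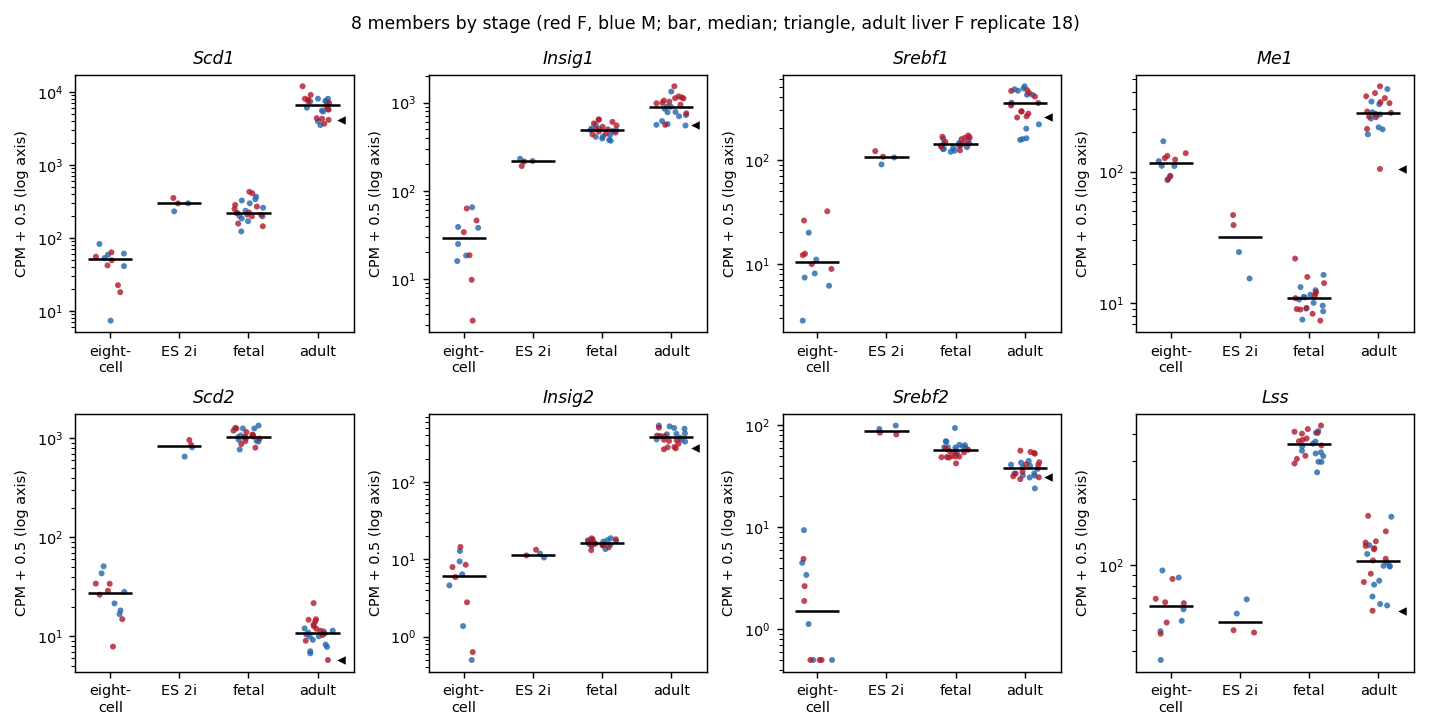
CPM + 0.5 (vertical, log axis) of 8 members in eight-cell embryos, ES lines, fetal and adult livers (horizontal). Each point is a library (red F, blue M), the bar is the median and the triangle is adult liver F replicate 18. Scd1 and Scd2 exchange places between fetal and adult liver, Insig2 and Me1 rise in adult liver, and Lss falls from a fetal median of 356 to an adult median of 103 CPM.

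Among the regulators, Insig2 rose most. It was at 12.6, 15.5 and 18.2 CPM in fetal livers and at 263, 380 and 535 CPM in adult livers, without overlap. Insig1, its homologue, was at 370, 489 and 645 CPM in fetal and 550, 900 and 1536 CPM in adult livers. The log2 difference was 4.71 ± 0.07 for Insig2 (adjusted p = 1.23e-51, edgeR) and 0.99 for Insig1, just inside the fold limit. Per length, Insig1 made up 95.6 to 98.1% of the pair before birth and 50.7 to 81.7% in the adult. Srebf1 was at 119, 142 and 170 CPM in fetal and 155, 348 and 509 CPM in adult livers (log2 difference 1.38 ± 0.11), whereas Srebf2 was at 41.5, 56.5 and 92.9 CPM in fetal and 23.4, 37.3 and 55.5 CPM in adult livers (log2 difference -0.47, not called). Per length, Srebf1 rose from 64.4 to 80.0% of the Srebf1 and Srebf2 pair to 85.2 to 94.9%. Scap (0.78) and Stard4 (0.24), which encodes a cytosolic sterol carrier, were not called.

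The cholesterol enzymes moved little, and not together. Lss, the cyclase that forms lanosterol, was at 265, 356 and 436 CPM in fetal livers and at 61.0, 103 and 167 CPM in adult livers. All adult livers lay below all fetal livers, and the log2 difference was -1.63 ± 0.08 (adjusted p = 1.91e-24, edgeR). Tm7sf2, a sterol reductase of the endoplasmic reticulum, went the other way, from 51.0, 60.1 and 84.0 CPM to 95.3, 154 and 282 CPM (log2 difference 1.51 ± 0.07). Hsd17b7, which reduces a 3-keto sterol, rose by 1.04 ± 0.07 and fell inside the fold limit in 3 alternative fits. The others lay between -0.69 (Sqle, the squalene epoxidase) and 0.88 (Pmvk, a kinase of the mevalonate pathway). Fdft1, the squalene synthase, had a log2 difference of -0.02, Acat2 of -0.03, Mvd of 0.06 and Dhcr7 of 0.06, with adjusted p-values of 0.489 to 0.826 by edgeR. Hmgcs1, which makes HMG-CoA, was at 771, 923 and 1161 CPM in fetal and 353, 1036 and 1926 CPM in adult livers: the medians were close, and the adult range enclosed the fetal one.

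Of the glycerolipid genes, Dgat2, the last enzyme of triglyceride synthesis, rose from 187, 226 and 390 CPM to 509, 680 and 957 CPM (log2 difference 1.73 ± 0.05, adjusted p = 2.06e-36 by edgeR). Pnpla3, a lipid droplet protein, was at 14.5, 23.8 and 34.2 CPM in fetal and 0, 4.30 and 59.0 CPM in adult livers (log2 difference -1.81 ± 0.23). Gpam, which starts glycerolipid synthesis, was not called (0.57). Of 24 further genes of the same pathways that were tested, 11 were called higher and 3 lower in adult liver, with a median log2 difference of 0.91. Among the rises were those of the glucose-responsive factor Mlxipl (3.40), the oxysterol receptor Nr1h3 (2.56) and the elongase Elovl2 (2.29), and the falls were in Lbr (-3.47), a sterol reductase of the nuclear envelope, G6pdx (-2.92) and Pgd (-1.06), both of the NADPH-forming pentose phosphate pathway.

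**Figure D3:**
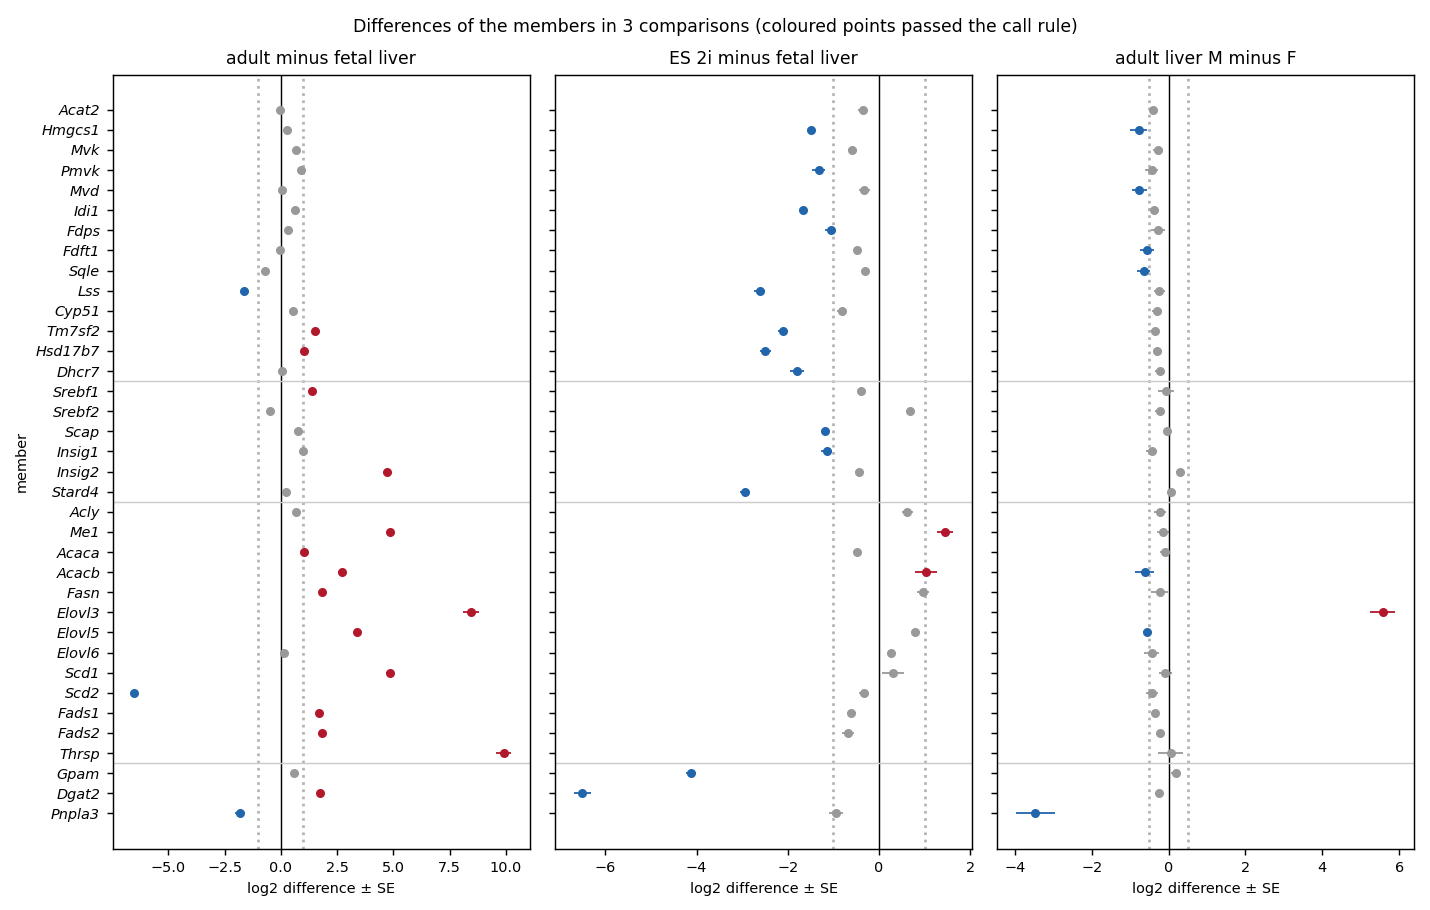
Log2 differences with standard errors (horizontal) of the members (vertical, by role) for adult minus fetal liver, ES lines minus fetal liver, and adult liver M minus F. Red and blue points passed the call rule, grey points did not, and dotted lines mark the fold limits. In the first panel the fatty acid genes lie mostly to the right, in the second the cholesterol enzymes lie to the left, and in the third all 14 cholesterol enzymes lie left of 0.

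ES lines were compared with fetal liver, which was prepared with the same kit. Most cholesterol enzymes and glycerolipid genes were called lower in ES lines, and no fatty acid gene was. Over all 14858 genes tested, 56.6% were called (23.5% higher and 33.1% lower in ES lines). Of the 34 members tested, 2 were called higher and 13 lower. The median log2 difference was -0.60 over the members and -0.08 over all genes. Of the 14 cholesterol enzymes, 8 were called lower and 0 higher, whereas 2 of 11 fatty acid genes were called higher and 0 lower. A cultured line and an organ differ in every cell type, so the comparison sets these sample kinds beside each other.

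Hmgcs1 was at 409 and 434 CPM in the M lines and 239 and 244 CPM in the F lines, all below the lowest fetal liver (771 CPM), with a log2 difference of -1.49 ± 0.09 (adjusted p = 2.13e-16, edgeR). Lss was at 68.9, 59.2, 49.5 and 48.3 CPM, again below every fetal liver, and fell by 2.61 ± 0.12 on the log2 scale. Hsd17b7 (-2.50), Tm7sf2 (-2.10), Dhcr7 (-1.80), Idi1 (-1.67), Pmvk (-1.32) and Fdps (-1.06) were also called. Sqle was close in both, at 116, 119, 171 and 166 CPM in the lines and 143 to 212 CPM in fetal livers, with a log2 difference of -0.32 that was not called. Among regulators Stard4 (-2.94 ± 0.12), Scap (-1.19) and Insig1 (-1.15) were lower, and Srebf2 (0.68, not called) was higher in ES lines.

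Dgat2 and Gpam, which make glycerolipids, were far lower in ES lines, while Pnpla3 (-0.94) was not called. Dgat2 was at 0.708 and 1.87 CPM in the M lines and 4.27 and 4.74 CPM in the F lines, against 187 CPM or more in fetal livers (log2 difference -6.50 ± 0.18, adjusted p = 2.14e-24, edgeR). Gpam was at 18.1, 19.2, 20.6 and 18.1 CPM against 272 CPM or more (-4.12 ± 0.11). Fasn was at 920, 517, 723 and 730 CPM in the 4 lines, and the highest fetal liver reached 576 CPM. Its log2 difference was 0.97 ± 0.14, just inside the fold limit, and it was called under 4 of the alternatives. Me1 (1.45 ± 0.18) and Acacb (1.03 ± 0.24) were called higher. Without ES line M 2, Acacb and Fdps were no longer called. Scd1 made up 28.0 to 29.2% of the Scd1 and Scd2 pair per length in ES lines, near the fetal liver share. Of the 24 other pathway genes, 1 was called higher and 14 lower, with the furthest falls in Pklr (-9.28), Nr1h3 (-6.00), Mlxipl (-5.00) and Elovl2 (-4.76).

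ES lines and eight-cell embryos differ in stage and in library protocol, which cannot be told apart. Over the 13511 genes tested, 51.3% were called (31.4% higher and 19.9% lower in ES lines), and the median log2 difference of all genes was 0.47 with TMM and 0.79 with size factors of DESeq2, and the members' values are read against these medians. Of 36 members, 17 were called higher and 6 lower, with a median of 1.28. Of the fatty acid genes, 8 of 13 were higher. Acly was at 891, 610, 720 and 768 CPM in ES lines and at 74.9, 106 and 142 CPM in embryos, without overlap (log2 difference 2.85 ± 0.14, adjusted p = 3.76e-10, edgeR). Scd2 was at 654, 813, 964 and 861 CPM against 7.39, 26.8 and 50.6 CPM (4.94 ± 0.32), and Srebf2 at 98.2, 90.9, 83.5 and 80.3 CPM against 0, 1.01 and 8.84 CPM (5.52 ± 1.02). Fads2 was at 79.7, 52.8, 93.9 and 84.5 CPM in ES lines and had no read in 11 of 12 embryos and 3 reads in the other. A count of 0 allows 3 reads, worth 0.388 to 0.644 CPM in an embryo. Tm7sf2 and Srebf2 also had no read in 5 of 12 embryos each.

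A smaller set of members was higher in embryos. Dgat2 was at 21.7, 68.5 and 151 CPM in embryos, above all 4 ES lines (log2 difference of ES lines -5.01 ± 0.53, adjusted p = 1.10e-06 by edgeR). Me1 was at 85.6, 115 and 169 CPM in embryos and at 14.9 to 46.2 CPM in ES lines (-2.01 ± 0.22), and Fdft1 at 190, 441 and 605 CPM in embryos and 124 to 178 CPM in ES lines (-1.48 ± 0.27). Elovl6 (-1.19) and Fdps (-1.15) were also lower in ES lines, and both calls were lost with size factors of DESeq2. Elovl3 had no read in any ES line, and 7 of 12 embryos had none either, while the highest embryo had 62 reads. Its call was lost when any 1 ES line was left out. The other calls higher in ES lines included Tm7sf2 (4.46), Gpam (4.41), Cyp51 (3.99), Fads1 (3.24), Srebf1 (3.13), Elovl5 (2.85), Insig1 (2.79), Fasn (2.70) and Scd1 (2.68). With the share of reads on genes in the fit, 5 members and 454 genes of all genes were called. The values of Cyp51 and Fads1 changed sign to -0.17 and -1.90, neither of them called. That share was 67.9 to 72.5% in ES lines and 83.5 to 89.2% in embryos, without overlap. Share and stage therefore cannot be told apart in that fit, and its fewer calls do not show that the differences are unstable.

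Gender labels were then compared within each stage, with the limits that the study set for sex dimorphism (adjusted p under 0.1 and absolute log2 above 0.5, M minus F). In adult liver 9.49% of 10372 genes were called (3.01% higher and 6.48% lower in M). All 36 members were tested: 1 was higher and 7 were lower in M, and the median log2 difference was -0.28, against -0.00 over all genes. Elovl3 was the gene with the largest difference, and all 14 cholesterol enzymes had a negative value, between -0.78 and -0.23, of which 4 were called. Alongside these, 4 of 7 Kupffer cell and macrophage markers were lower in M (summed level 374 to 666 CPM in M and 504 to 1116 CPM in F), 0 of 10 hepatocyte markers were called, the 1 tested erythroid marker, Alas2, was higher in M (2.79), and 5 of 11 fasting response genes were lower in M, with Cyp4a14 (-3.88) and Cyp4a10 (-2.04) furthest. The summed adipocyte markers were 5.99 to 161 CPM in F and 9.08 to 16.7 CPM in M. Their part in the differences was not tested.

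Elovl3 was at 1.44, 12 and 20.4 CPM in adult F livers and at 260, 522 and 1072 CPM in adult M livers. Every M liver lay far above every F liver. The log2 difference was 5.57 ± 0.33 (adjusted p = 3.34e-12, edgeR). The gene overlaps Pitx3 on the opposite strand at chr19:46131897-46135694, and whether the counting used strand is not given in the sources used here. Pnpla3 showed the largest F excess: 2.40, 15.5 and 59.0 CPM in F and 0, 1.37 and 5.20 CPM in M, with overlap at the low end of F, and a log2 difference of -3.46 ± 0.50 (adjusted p = 1.08e-05). The M levels lie near the worth of 3 reads.

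The cholesterol enzymes called lower in M were Hmgcs1, Mvd, Sqle and Fdft1. Hmgcs1 was at 353, 1302 and 1926 CPM in F and 440, 784 and 1110 CPM in M. Mvd, which decarboxylates mevalonate diphosphate, was at 18.7, 50.2 and 89.9 CPM in F and 20, 28.0 and 57.4 CPM in M. Sqle was at 47.0, 127 and 184 CPM in F and 48.6, 80.2 and 119 CPM in M. The ranges of these genes overlapped, and one F liver was as low as the lowest M livers. The log2 differences were -0.78 ± 0.22 for Hmgcs1, -0.77 ± 0.20 for Mvd, -0.65 ± 0.17 for Sqle and -0.55 ± 0.18 for Fdft1, with adjusted p-values of 0.00974, 0.00571, 0.00585 and 0.0235 by edgeR. The smallest differences in the group were those of Dhcr7 (-0.23), the last reductase before cholesterol, Lss (-0.24) and Mvk (-0.27).

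Fatty acid genes split by label less evenly. Elovl5 was at 626, 817 and 988 CPM in F and 334, 573 and 744 CPM in M, with a log2 difference of -0.56 ± 0.10 (adjusted p = 0.000134, edgeR). Acacb was at 48.5, 158 and 324 CPM in F and 65.2, 104 and 163 CPM in M (-0.63 ± 0.24, adjusted p = 0.0610), a call lost when no filter on low counts was applied. Fads1 (-0.36 ± 0.07) and Fads2 (-0.22 ± 0.06) had adjusted p-values of 8.85e-05 and 0.00615 by edgeR but lay inside the fold limit. Fasn (-0.24), Scd1 (-0.08), Acaca (-0.10), Acly (-0.22) and Thrsp (0.06) were not called, with adjusted p-values of 0.350 to 0.925. None of the 6 regulators was called: Insig1 was at -0.44 ± 0.14, Insig2 at 0.30 ± 0.10, and Srebf1 (-0.07) and Srebf2 (-0.23) had adjusted p-values of 0.844 and 0.171. Of the 24 other pathway genes, 3 were called, all lower in M: Acss2 (-0.87), which makes acetyl-CoA from acetate, G6pdx (-0.62) and Acsl3 (-0.52).

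One adult liver, F replicate 18, stood apart from the other 11 F livers. It was the lowest F liver for 30 of the 36 members, including 13 of 14 cholesterol enzymes and 12 of 13 fatty acid genes, and no other F liver was the lowest for more than 2. The same count was not made over all genes, so it does not show a trait particular to the members. Its Hmgcs1 level was 353 CPM, against 925 CPM in the next lowest F liver. Fasn was at 405 against 818 CPM, Sqle at 47.0 against 99.8 CPM and Fdft1 at 102 against 193 CPM. In the same liver the clock gene Arntl was at 60.5 CPM, the highest of the F livers (10.3 to 60.5 CPM), and the clock output gene Dbp at 2.88 CPM, the lowest (2.88 to 104 CPM). Pck1, a gluconeogenic enzyme, was at 5082 CPM, near the top of the F range of 2018 to 5219 CPM (median 3090 CPM). Without this liver, an alternative chosen after the data were seen, Hmgcs1 had a log2 difference of -0.87, Mvd of -0.84, Sqle of -0.73, Acacb of -0.71 and Fdft1 of -0.62, the 8 calls were kept, and Elovl6 (-0.51) was gained.

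**Figure D4:**
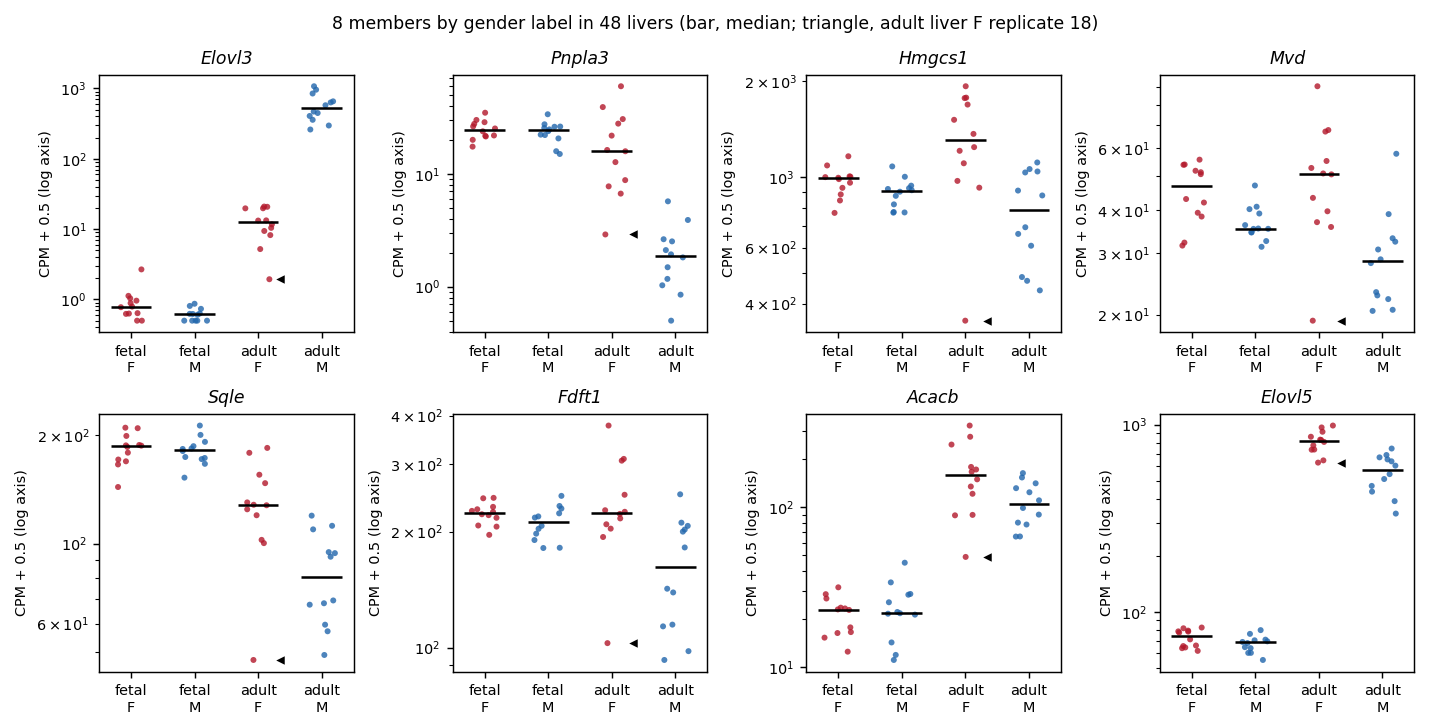
CPM + 0.5 (vertical, log axis) of the 8 members called between adult M and F livers, in fetal and adult livers by gender label (horizontal). Each point is a liver, the bar is the median and the triangle is adult liver F replicate 18. Elovl3 separates in adult liver (F 1.44 to 20.4, M 260 to 1072 CPM), while the other genes overlap and the triangle lies at the foot of the F points for most of them.

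In fetal liver no member passed the limits. Of 12930 genes tested, 4.64% were called (3.81% higher and 0.828% lower in M). Of 34 members tested, 0 were called by edgeR and 0 by DESeq2, while 14 had an unadjusted p under 0.05 by each tool. The values nearest to the fold limit were Srebf2 at 0.36 ± 0.07 and Mvd at -0.28 ± 0.09 (adjusted p = 0.000431 and 0.0233 by edgeR). Srebf2 was at 41.5, 48.9 and 58.2 CPM in F and 52.4, 60.7 and 92.9 CPM in M. The share of reads on genes did not overlap between the labels, and with it in the fit 0 members had an unadjusted p under 0.05 and 7 genes in all were called, so gender label and share cannot be told apart here.

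The difference of the adult and fetal M minus F values was tested as an interaction, in which 13.7% of 13026 genes were called (5.19% positive and 8.53% negative). One member was positive and 5 were negative. They were Elovl3 (7.20 ± 1.16), Pnpla3 (-3.38 ± 0.46), Acacb (-0.75 ± 0.32), Hmgcs1 (-0.64 ± 0.22), Sqle (-0.61 ± 0.17) and Srebf2 (-0.54 ± 0.14), with adjusted p-values of 6.47e-06, 2.53e-07, 0.0809, 0.0295, 0.00571 and 0.00275 by edgeR. The Elovl3 value rests on fetal counts of 17 reads or fewer. Hmgcs1 was at 771, 989 and 1161 CPM in fetal F and 772, 903 and 1078 CPM in fetal M, so its label ranges nearly coincided before birth. With the share of reads in the fit Hmgcs1, Srebf2 and Acacb were lost. Without F replicate 18 the called members were 1 positive and 10 negative, with Mvd, Fdft1, Fasn, Scd2 and Fads1 gained.

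In ES lines 9.50% of 12678 genes were called (3.42% higher and 6.08% lower in M), and of 34 members tested 3 were higher and 3 lower in M. Hmgcs1 was at 409 and 434 CPM in M and 239 and 244 CPM in F (0.82 ± 0.07, adjusted p = 0.0104, edgeR). The difference of this value from that of adult liver was not tested. Idi1 (0.53) and Fdft1 (0.50) were also higher in M, and Sqle (-0.50), Me1 (-1.11) and Dgat2 (-1.79) were lower. Sqle was at 116 and 119 CPM in M and 171 and 166 CPM in F, the reverse of the order for Hmgcs1. With 2 lines a label, leaving out a line leaves a label with 1 sample, which is assumed to vary like the other label. Hmgcs1 then stood at 0.85 and 0.78 without M line 1 and M line 2, and at 0.80 and 0.83 without F line 3 and F line 4. The edgeR count was 11 members without either M line and 0 genes of any kind without either F line (1290 and 1163 genes at an unadjusted p under 0.05), and these counts say nothing about stability. Of 21 other pathway genes, 3 were lower in M, Ebp (-1.48), G6pdx (-0.98) and Nsdhl (-0.90), and these are X-linked genes. In embryos 0.264% of 9087 genes were called (0.044% higher and 0.220% lower in M), and 0 of 30 members tested were called by edgeR or DESeq2, with 0 and 1 at an unadjusted p under 0.05.

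The adult livers varied among themselves more than the fetal ones, and the members more than most genes. The SD of log2 CPM within gender labels had a median of 0.37 over the cholesterol enzymes and 0.43 over the fatty acid genes in adult liver, against 0.24 over 9896 genes. In fetal liver the medians were 0.20, 0.23 and 0.16. Adult libraries also held fewer reads, and the part of depth in this spread was not tested. Pnpla3 (SD 1.06), Thrsp (0.86), Elovl3 (0.85), Acacb (0.62), Fasn (0.61) and Hmgcs1 (0.58) were the most variable members of adult liver, all above the 97th percentile of genes. Fads2 (0.15), Fads1 (0.17), Dgat2 (0.17) and Scap (0.18) were below the 30th percentile, so abundant members were not all variable.

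The variation was shared. After each label's mean was removed, the 91 pairs of cholesterol enzymes had a median Pearson r of 0.75 over the 24 adult livers, and 94.5% of them had an r above 0.5, against 2.76% of all pairs among 9896 genes (median r -0.00). The 78 pairs of fatty acid genes had a median r of 0.50, and the 182 pairs of a cholesterol enzyme with a fatty acid gene 0.51. F replicate 18 took part in this. Without it the medians were 0.67, 0.40 and 0.35, and the shares of pairs above 0.5 were 78.0%, 34.6% and 25.8%, where they had been 94.5%, 51.3% and 52.2%, against 2.96% of all pairs. In fetal livers, which do not include that animal, the medians were 0.74, 0.65 and 0.54. The shares of fetal pairs above 0.5 were 84.6%, 69.1% and 56.5%, against 5.04% of all pairs.

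Of the pairs, 10 were tested by permutation of the livers (100000 resamples, 2-sided, with p-values adjusted over the 10), and 7 passed an adjusted p of 0.05. The 10 pairs were chosen with earlier results of these data known. Their p-values do not allow for that choice, and no conclusion is drawn from them or from the count of 7. Hmgcs1 and Sqle had r = 0.87 and rho = 0.75 (adjusted p for r = 5e-05, from an unadjusted p of 1e-05, the smallest these permutations can give). Without the 2 livers farthest from the median of Hmgcs1 r was 0.72, and it was 0.92 within M and 0.85 within F. Sqle and Fasn had r = 0.81 (adjusted p = 5e-05, permutation) and rho = 0.72, with 0.77 within M and 0.85 within F. For Fasn and Acly r was 0.75 and rho 0.77, with 0.76 within M and 0.75 within F. For these 3 pairs r had the same sign in both labels, and within F without replicate 18 it was 0.45, 0.46 and 0.69.

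Links to the regulators were uneven. Sqle and Insig1 had r = 0.64 and Sqle and Stard4 r = 0.73 (adjusted p = 0.00178 and 0.000775, permutation), with rho of 0.47 and 0.52, but within F without replicate 18 r was -0.19 and -0.04. Sqle and Srebf2 had r = 0.30 (adjusted p = 0.187, permutation), and Insig1 and Insig2 r = -0.03. Fasn and Srebf1 had r = 0.59 (adjusted p = 0.00313, permutation) and rho of 0.63, with 0.80 within M, 0.22 within F and -0.28 within F without replicate 18. Fasn and Thrsp had r = 0.65 (adjusted p = 0.00132, permutation) and rho of 0.63. Without the 2 farthest livers these values were 0.39 for Sqle and Insig1, 0.49 for Sqle and Stard4, 0.51 for Fasn and Srebf1 and 0.50 for Fasn and Thrsp.

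Elovl3, tested with Fasn, gave no pooled relation. With Fasn its r was 0.08 over all livers, -0.78 within M and 0.69 within F, and the F value rested on replicate 18, without which it was 0.10. Over all 24 livers the adjusted p was 0.777 (permutation). Over the 23 other livers r was -0.48, the reverse of the sign over all 24. Replicate 18 was left out after the levels of these genes had been seen, so no p-value is given for that value. Among those 23 livers Elovl3 had r = -0.63 with Srebf1, -0.66 with Stard4 and -0.55 with Fads1, but 0.55 with Insig2. Several high r values hardly moved without replicate 18, among them the highest of all, that of Fdps and Lss (0.92 and 0.89). Other examples were Acaca and Elovl6 (0.91 and 0.90), Elovl6 and Thrsp (0.91 and 0.87) and Pmvk and Lss (0.91 and 0.88). Gpam and Fdft1 (0.87 and 0.82) and Srebf2 and Scap (0.69 and 0.69) were further ones, and the list is not complete.

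**Figure D5:**
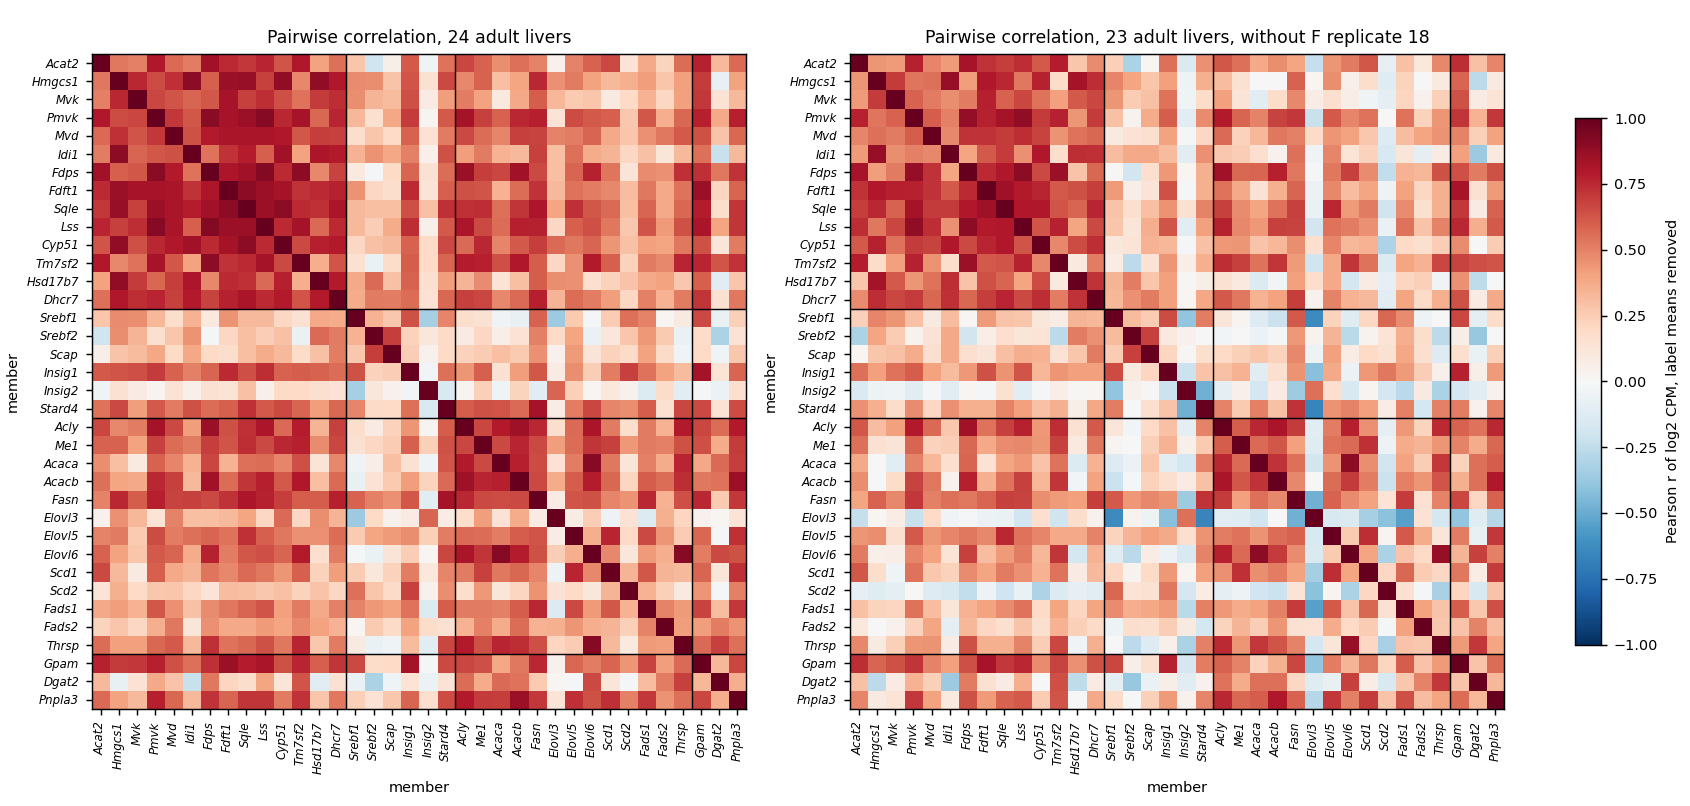
Pearson r of log2 CPM, label means removed, for every pair of the 36 members (both axes, ordered by role, black lines between roles) over the 24 adult livers (left) and the 23 without F replicate 18 (right). The block of cholesterol enzymes at the upper left stays red in both panels (median r 0.75 and 0.67), Insig2 is pale, and Elovl3 turns blue against several members in the right panel.

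The mean standardised level of the 14 cholesterol enzymes was used as a score of each adult liver, and all 9896 genes were ranked by their r with it. The enzymes in the score rank high by construction: Sqle (r = 0.95) and Fdft1 (0.95) came 1st and 2nd. Of members outside the score, Gpam had r = 0.83 (rank 14), Fasn 0.80 (rank 21), Acly 0.74 (rank 36), Me1 0.72 (rank 43) and Insig1 0.72 (rank 44). Without F replicate 18 these were 0.77, 0.68, 0.68, 0.49 and 0.58. In contrast, Srebf1 (0.36), Srebf2 (0.29) and Insig2 (0.14) ranked 1005, 1502 and 3015. Elovl3 went from 0.38 to -0.03 without that liver. Pathway enzymes that were not members also ranked high: Nsdhl with r = 0.88 (rank 8), Sc4mol with 0.86 (rank 11), Sc5d with 0.86 (rank 12), Acss2 with 0.76 (rank 29) and the citrate carrier Slc25a1 with 0.75 (rank 33). Ebp (0.16) and Lbr (0.05) of the same pathway did not. Among the genes outside every list with the highest r were Mmab (0.82), a mitochondrial cobalamin enzyme, Rdh11 (0.81), a retinal reductase, the water channel Aqp8 (0.80) and Gamt (0.79), which makes creatine. Without F replicate 18 these 4 had r = 0.73, 0.79, 0.69 and 0.75.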

How the data were processed

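The authors deposited raw read counts, one table per library, with no normalization. Per the labels and the submitters' processing notes, reads were aligned to mm10 with TopHat2 2.0.4 and Bowtie2 2.1.0, handled with SAMtools 0.1.18 and Picard, and counted per gene symbol with HTSeq. The strand setting and the lane of each library are not given in the sources used here. The 5 summary lines of each table were left out of library sizes and tests.

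Samples were grouped by Stage and gender labels. Replicates are separate lines, embryos or livers by their labels. Counts of all genes were tested with edgeR 4.0.16 in R 4.3.3 (TMM, filterByExpr, robust quasi-likelihood fit, 2-sided F test, Benjamini-Hochberg adjustment), with 1 mean per stage and label. DESeq2 1.42.0, its size factors in edgeR, no filter, the share of reads on genes as a covariate, a replicate block and leaving out single ES lines were alternatives. Correlations used log2 (CPM + 0.5) where the mean level reached 5 CPM, in Python 3.11.15 with numpy 2.4.6 and scipy 1.17.1. Methods were tested on simulated data. Lengths and positions are from GENCODE M21, and the worth of 3 reads covers counting error only. Fitted differences of genes near that floor depend on the prior count.

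Named genes were all called members, up to 12 a direction by size, up to 4 called genes of the other pathway list, and among genes outside the lists those with the highest r to the cholesterol enzymes. Some results for single genes are not reported here. The members, the lists and the 10 tested pairs were chosen with earlier results of these data known. Fdft1, Lss, Cyp51, Srebf1, Me1, Acaca, Srebf2 and Scd2 overlap other counted genes. Reads that fit both genes of an overlap were set apart as ambiguous, so counts of these members may be too low. Whether reads of the other strand were counted with them is not known. Acat2 has a near-identical neighbour, and its reads that aligned to both places may be missing in the same way.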

Additional observations from a re-analysis of the deposited data

Results flagged for a closer look

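Sets of values, each of 1 gene in the embryos of 1 label, were examined for a single value far from the rest. Of 20 such sets 3 had one. The sets share embryos and are not independent, so the count is not set against chance. All 3 came from the same F embryo, replicate 10. It had the lowest Fdft1 level, 190 CPM, against 461 to 605 CPM in the other F embryos. Its Hmgcs1 level, 204 CPM, was the highest, against 75 to 113 CPM. It was also the one embryo with reads of Fads2, at 0.536 CPM (3 reads). With 0 reads in the other 5 F embryos any read would stand apart, and 3 reads lie within what a count of 0 allows, so this value shows no difference.

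The M minus F difference was not the same in adult and fetal liver for 6 members, by the interaction term of edgeR's quasi-likelihood test over 48 livers. The adult value minus the fetal value was -0.64 for Hmgcs1, -0.61 for Sqle, -0.54 for Srebf2, -0.75 for Acacb, 7.20 for Elovl3 and -3.38 for Pnpla3 on the log2 scale. With the share of reads on genes as a covariate Hmgcs1, Srebf2 and Acacb were not called, and Acacb was not called with no filter on low counts. The share did not overlap between M and F fetal livers, so share and label cannot be told apart there.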

How the results depend on the processing

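Members called in a comparison, and the pairs of the correlation tests, gave 628 values under an alternative, of which 566 kept their direction and side of the threshold, 56 fell below it, 2 rose past it and 4 changed sign. Members called under an alternative alone are not among them. With the share of reads on genes as a covariate, 5 members were called between ES lines and embryos in place of 23, and Cyp51 (-0.17) and Fads1 (-1.90) changed sign. Over all genes that covariate took this comparison from 6930 to 454 calls and fetal M against F from 600 to 7. In both comparisons the share did not overlap between the groups, so it cannot be told apart from stage or label there. With no filter on low counts, fetal M against F had 2 called members, Elovl3 and Thrsp, and 1057 calls in all, and adult M against F had 1518 in place of 984. Leaving out 1 ES line gave 0 to 11 called members for ES M against F, and 0 to 3070 genes in place of 1205, each from a fit with 1 line in a label, which says nothing about stability. DESeq2 gave 64 calls in embryos in place of 24. Without adult liver F replicate 18, the interaction had 11 called members in place of 6, and r of Fasn and Elovl3 changed sign to -0.48. A pseudocount of 5 gave -0.15 for that pair. Replicate numbers only name samples: deviations of same-numbered samples had r from -0.16 to 0.08 between adult and fetal liver, from -0.08 to 0.11 between ES lines and fetal liver and from 0.01 to 0.04 between ES lines and embryos. With the replicate block 17, 14 and 22 members were called in these comparisons, in place of 18, 15 and 23. With ES lines only numbers 1 to 4 are shared, and the livers and embryos of these numbers are all M. ES lines 3 and 4 are F, so for the ES comparisons the block mixes stage with gender label and does not measure stability. Adult livers had the fewest reads.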

Other observations

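The 11 measured clock genes were examined beside the members in adult liver. Dbp, a clock output gene that cycles strongly in liver, was at 2.88, 20.8 and 104 CPM (lowest, median, highest) in F and 3.58, 45.9 and 98.5 CPM in M. The clock gene Arntl was at 10.3, 26.9 and 60.5 CPM in F and 8.06, 19.1 and 38.8 CPM in M. Of 10 clock genes tested, Per2 (0.56) was called between M and F.

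Relations of a member with a clock gene were tested for 5 pairs after the values had been seen. The test was by permutation of the 24 livers with label means removed, with p-values adjusted over the 5. That adjustment leaves out the other pairs that could have been chosen. The p-values therefore do not allow for the choice of pairs, and no conclusion is drawn from them. Stard4 and Gpam, which were not tested, had r of 0.70 and 0.68 with Dbp over the same livers. Thrsp and Dbp had r = 0.71 (adjusted p = 0.00055, permutation) and rho = 0.62, with 0.76 within M and 0.69 within F. Without the 2 livers farthest from the median of Thrsp r was 0.51, and without F replicate 18 it was 0.62. Srebf1 and Dbp had r = 0.56 (adjusted p = 0.0115, permutation) and rho = 0.58, with 0.64 within M and 0.53 within F, 0.65 without the 2 farthest livers and 0.55 without F replicate 18. Hmgcs1 and Dbp had r = 0.46 (adjusted p = 0.0399, permutation) and rho = 0.29, and r fell to 0.23 without F replicate 18, so that relation rests on it. Insig2 and Arntl had r = 0.36 (adjusted p = 0.106, permutation) and rho = 0.31. Elovl3 and Arntl had r = 0.01 (adjusted p = 0.969, permutation) and rho = 0.18 over all livers, with 0.81 within M and -0.44 within F. All mice were killed in the late morning, and the time at which single livers were taken is not given in the sources used here.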
